A study of Mus musculus with 8 samples.

Results

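Macrophages without a single Cd38 UMI in tumors treated with medium R848-BPDs are described here. R848 (resiquimod) is a small agonist of the endosomal receptors TLR7 and TLR8, and the medium R848-BPD is a bottlebrush polymer that carries R848 on a linker of intermediate release rate. Single cells of 8 MC38 tumors, a mouse colon carcinoma line grown under the skin of C57BL/6 mice, were captured on Seq-Well arrays 24 hours after medium R848-BPDs (2 tumors), free R848 (3 tumors) or saline (3 tumors). Cells bound by CD45 beads made up most of each load, so that shares of cells describe the load and not the tumor. The mice were females of the C57BL/6J strain, 8 weeks old, and each library is 1 mouse.

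Members were selected on raw counts of unique molecular identifiers (UMIs, each standing for 1 captured transcript). A cell had more than 400 and fewer than 10000 genes, 3000 to 50000 UMIs and at most 15% mitochondrial UMIs. The gate for macrophages asked for at least 5 UMIs of the complement genes C1qa, C1qb and C1qc together, no UMI of Cd3d, Cd3e and Cd3g (the CD3 chains of T cells) and at most 2 UMIs of Mtap and Rhox5, which mark MC38 cells. In the medium R848-BPD tumors 865 cells passed this gate, and the 290 of them with no Cd38 UMI (188 in replicate 1 and 102 in replicate 2) are the members, out of 10791 barcodes in all 8 libraries. The same gate and the same absence of Cd38 gave 1041 cells in the free R848 tumors (285, 517 and 239) and 1406 in the saline tumors (390, 750 and 266). Another 155 cells of the medium R848-BPD tumors held exactly 1 Cd38 UMI, just outside the limit, and 420 held at least 2 and are called Cd38-high. At the C1q limit, 5 members held exactly 5 C1q UMIs, and 10 cells that met every other criterion held 4.

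CD38 is an enzyme on the cell surface that consumes NAD, and its transcript is known to be raised in mouse macrophages by Toll-like receptor ligands and interferon. Macrophages stimulated through Toll-like receptors also make acute-phase proteins such as serum amyloid A3 (Saa3) and lipocalin-2 (Lcn2), chemokines, and feedback inhibitors of NF-κB. C1q is made by tissue and tumor macrophages and much less by blood monocytes, which is why it serves as their mark.

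All 12 genes of a list of macrophage identity genes were detected in the members of both tumors, with summed levels of 18585 and 17518 CPM. CPM is the usual depth-normalized count, here the UMIs of a gene relative to all UMIs of the summed cells and scaled between sums. Sums of T cells and MC38 cells, given for reference, were scaled separately from those of macrophages. Levels set across these sets are therefore not on exactly 1 scale. The Cd38-zero cells of the other 6 tumors held 17552 to 27803 CPM, and the Cd38-high cells of the medium R848-BPD tumors 24963 and 21883 CPM. In the edgeR tests below, at adjusted p under 0.05, Fcgr1 and Itgam of this list were higher against saline and Csf1r was lower. Mrc1, Lyz2 and Apoe were lower than in Cd38-high cells. A list of 12 T-cell genes summed to 14.1 and 9.43 CPM in the members, against 3645 and 2663 CPM in cells with at least 2 CD3 UMIs and no C1q UMI from the same tumors, called T cells below. All 12 macrophage genes were above 0 in these T cells too, at sums of 288 and 1896 CPM, so detection alone does not mark macrophages. Lists of cell types that the gate did not remove summed to more in the members, at 162 and 455 CPM for NK cells, 183 and 258 CPM for dendritic cells and 147 and 221 CPM for neutrophils. After free R848, Cd38-zero cells summed to 160, 239 and 45.5 CPM for NK cells and 33.2, 58.7 and 53.9 CPM for dendritic cells. Their neutrophil sums were 127, 126 and 203 CPM. After saline the sums were 231, 175.5 and 49.9 CPM for NK cells and 180, 42.8 and 33.5 CPM for dendritic cells. Neutrophil sums after saline were 43.0, 41.7 and 58.4 CPM. Of the members, 46.8% and 49.0% held a UMI of any of 20 markers of T, NK, dendritic, neutrophil, MC38 or fibroblast cells, and 55.3% and 49.5% of the Cd38-high cells did. The shares were lower in the Cd38-zero cells after free R848 (42.8%, 27.7% and 36.8%) and after saline (27.7%, 34.9% and 21.8%). Each library held 5867590 to 12422614 UMIs, and members had medians of 5839 and 4693 UMIs per cell, below the 7617 and 5429 UMIs of the Cd38-high cells. Across the series 23 barcodes occurred in more than 1 library, and 2 of them were members and 1 was a Cd38-high cell.

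Cd38 was the gene that chose the members, so its values are given as a description. The share of gated macrophages with no Cd38 UMI was 37.2% in medium R848-BPD replicate 1 (exact 95% interval 33.0 to 41.6) and 28.3% in replicate 2 (23.7 to 33.3), with a mean of 32.8% ± 6.29 (SD, n = 2). The 3 free R848 tumors had a mean of 90.7% ± 4.18 (SD), and the 3 saline tumors one of 94.6% ± 4.97 (SD). The intervals cover counting error only, since PCR reads and free RNA are not accounted for.

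The share depended on depth. In replicate 1 it was 47.1% among cells of 3000 to under 6000 UMIs, 32.9% at 6000 to under 12000 and 23.2% at 12000 UMIs and over. In replicate 2 the same bins gave 31.5%, 22.8% and 16.7%, the last of them 3 of 18 cells. The level of Cd38 over the cells of each bin moved less, at 258, 253 and 301 unscaled CPM in replicate 1 and 414, 440 and 479 in replicate 2. Thinning every gated cell to 3000 UMIs raised the share to a mean of 46.2%. An absent UMI is therefore not an absent transcript, and the number of members that carried uncaptured Cd38 was not tested.

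**Figure D1:**
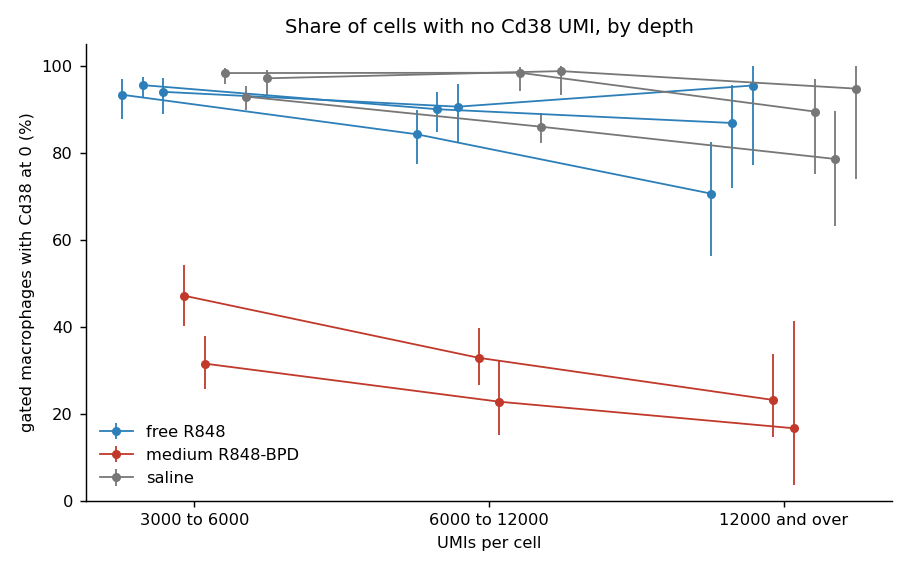
Share of gated macrophages without a Cd38 UMI (y axis, percent) in 3 bins of UMIs per cell (x axis). Each line is 1 tumor, colored by treatment, with exact 95% intervals. Both medium R848-BPD tumors lie below every other tumor in each bin and fall from 47.1% to 23.2% and from 31.5% to 16.7%.

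Members differed from the Cd38-zero macrophages of free R848 tumors in a small set of genes. Saa3 and Lcn2 were higher by about 6 and 5 units on the log2 scale. The formyl peptide receptor Fpr1, the mitochondrial superoxide dismutase Sod2 and the NF-κB feedback gene Irak3 were also higher. The urokinase gene Plau and the receptors Flt1, Tlr2, Cd93 and Axl were lower. Counts were summed over the Cd38-zero cells of each tumor and tested with edgeR (quasi-likelihood F test, p-values adjusted by the method of Benjamini and Hochberg). Of 9715 genes, 34 were higher in members (percent called 0.35) and 10 were lower (percent called 0.103). With DESeq2 91 were higher and 53 lower.

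Saa3, an acute-phase protein made by macrophages at sites of inflammation, was the most abundant of these genes (chromosome 7, 46711998 to 46715700, minus strand, GRCm38, GENCODE vM21). Its level in the members was 4785 CPM in replicate 1 and 7447 CPM in replicate 2. In the free R848 tumors it was 93.4, 60.5 and 133 CPM, and in the saline tumors 1.52, 3.75 and 0 CPM. The 3 treatment groups did not overlap. The log2 fold change against free R848 was 6.01 ± 0.46 (SE, edgeR adjusted p = 0.000674). Against saline the edgeR adjusted p was 2.1e-05, with no fold printed because the saline sums held 4, 20 and 0 Saa3 UMIs.

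Saa3 was spread unevenly over the members. In replicate 1, 50 of 188 members had no Saa3 UMI, 38 had 1 to 4 and 100 had at least 5, and the 10% of cells with the most Saa3 held 58.0% of the Saa3 UMIs. In replicate 2, 33 of 102 had none, 15 had 1 to 4 and 54 had at least 5. Members with a Saa3 UMI made up 73.4% and 67.6%, against 12.98%, 6.77% and 8.79% of the same cells after free R848. After thinning to 3000 UMIs the shares of members were 66.0% and 63.7%. The T cells of the same 2 tumors gave 17.7% and 21.2% after thinning (31.2% and 24.2% before, at medians of 5594 and 5682 UMIs), and they held 600 and 2348 CPM of Saa3. The part of free or shared RNA in the members' Saa3 was not tested.

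Lcn2, which encodes an iron-siderophore binding protein (chromosome 2, 32384633 to 32388252, minus strand), stood at 299 and 242 CPM in members. Free R848 tumors held 8.73, 8.74 and 5.77 CPM of Lcn2, and saline tumors 0, 0.188 and 0 CPM. No level of a member sum came near the other tumors. The log2 fold change against free R848 was 5.08 ± 0.21 (SE, edgeR adjusted p = 4.01e-06). In replicate 1 the T cells held 4.80 CPM of Lcn2, but in replicate 2 they held 209 CPM, and 33.3% of those 33 T cells had a Lcn2 UMI against 31.4% of members. These T cells had a median of 5682 UMIs against 4693 in the members of replicate 2. They also held 1896 CPM of the macrophage identity genes and 1257 CPM of the neutrophil genes. The part of free or shared RNA in the members' Lcn2 was not tested.

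Haptoglobin (Hp), a hemoglobin scavenger, completed the acute-phase genes higher against free R848. It was at 51.9 and 60.4 CPM in members, 19.2, 9.64 and 16.0 CPM after free R848 and 6.47, 5.82 and 3.65 CPM after saline. The log2 fold change of Hp was 1.92 ± 0.31 (SE, edgeR adjusted p = 0.0324) against free R848 and 3.33 ± 0.33 (SE, edgeR adjusted p = 0.00103) against saline. Against free R848 it lost its call in 9 of 21 alternatives, among them each that left out 1 free R848 or medium R848-BPD tumor, and its lowest value was 0.74, in cells with at least 6000 UMIs. The T cells of replicate 2 held more Hp, 276 CPM, than the members, while those of replicate 1 held 9.60 CPM. The same T cells of replicate 2 summed 1257 CPM over 12 neutrophil genes, against 36.8 CPM in replicate 1 and 221 CPM in the members of replicate 2. The acute-phase list as a whole had 5 of 12 genes tested, 3 called higher and a median log2 change of 2.03, against a median of 0.0012 over all genes. It was drawn up with earlier results of these data known, so the count is no independent evidence.

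The bases upstream of Saa3, the most abundant of the genes called against free R848, are shown from RefSeq (GRCm38.p6), 5′ to 3′ on the strand of the gene, from 250 to 61 bases before the start site of RefSeq, which differs from the GENCODE end given above. Capitals mark TTGCNNAA, a pattern bound by C/EBP factors, on either strand.
Saa3, chr7:46715737-46715926, minus strand: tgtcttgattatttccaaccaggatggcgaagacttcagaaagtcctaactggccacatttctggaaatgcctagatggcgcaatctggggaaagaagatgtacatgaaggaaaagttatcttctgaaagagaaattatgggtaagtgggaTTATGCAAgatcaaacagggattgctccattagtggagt
The pattern occurs in 7.77% of 32851 promoter windows of the same length. The kappa-B consensus, which 5.42% of the windows hold, has no match in this one. A match describes letters and not a bound site.

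**Figure D2:**
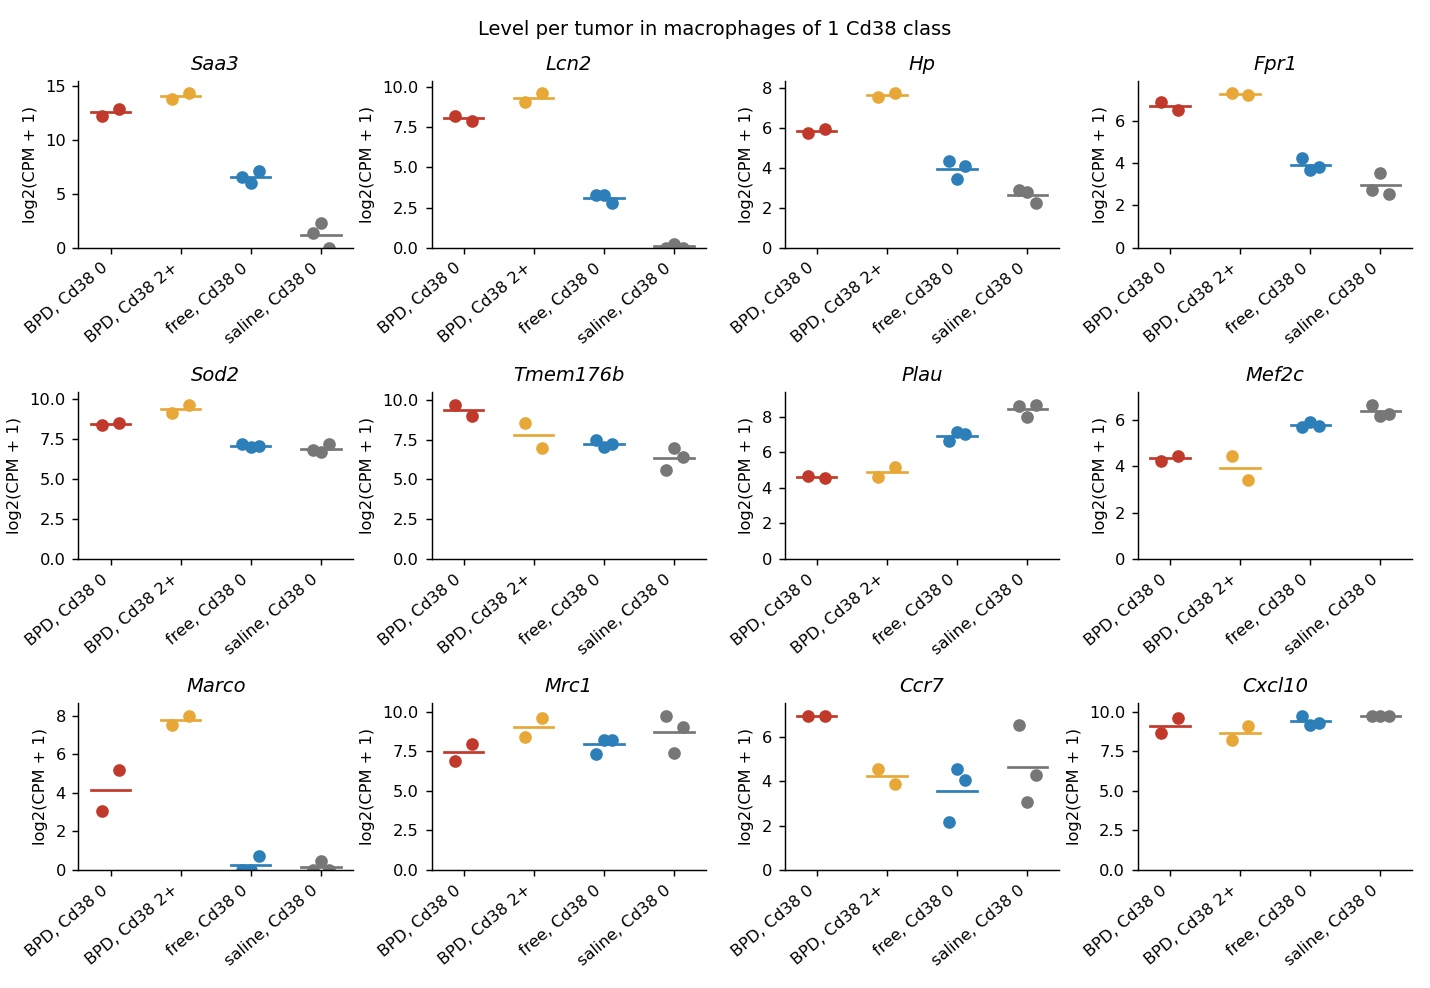
Level of 12 genes per tumor as log2(CPM + 1) on the y axis, for Cd38-zero and Cd38-high macrophages of the 2 medium R848-BPD tumors and Cd38-zero macrophages of the free R848 and saline tumors; points are tumors and bars are means. Saa3 and Lcn2 of members lie far above free R848 and below the Cd38-high cells, while Plau and Mef2c of members lie below free R848 and saline.

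Fpr1, a receptor for bacterial formyl peptides, was at 116 and 88.7 CPM in members, 17.9, 11.7 and 12.8 CPM after free R848 and 5.71, 10.7 and 4.87 CPM after saline. Its log2 fold change against free R848 was 2.88 ± 0.30 (SE, edgeR adjusted p = 0.00327). In the T cells Fpr1 was at 0 and 22.1 CPM. Procr, the endothelial protein C receptor, was higher by 2.78 ± 0.49 on the log2 scale (SE, edgeR adjusted p = 0.0485), with 33.4 and 92.5 CPM in members against 3.93, 12.05 and 8.98 CPM. The scavenger receptor Marco was called too (edgeR adjusted p = 0.0485), but from 10 and 19 UMIs in all members and 1 in all free R848 cells. The list of scavenger and chemoattractant receptors had 17 genes tested, these 3 higher and none lower, with a median log2 change of 0.08.

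Tmem176a and Tmem176b, neighboring genes for membrane proteins found in myeloid and dendritic cells, were higher in members by 2.50 ± 0.29 and 2.17 ± 0.35 on the log2 scale (SE, edgeR adjusted p = 0.00788 and 0.0324). Tmem176b stood at 833 and 506 CPM in members, 174, 128 and 146 CPM after free R848 and 46.0, 124 and 84.6 CPM after saline. The 12 dendritic cell markers summed to 183 and 258 CPM in members against 33.2, 58.7 and 53.9 CPM after free R848. The part of dendritic cells in the rise of Tmem176a and Tmem176b was not tested. Semaphorin Sema4c was at 62.3 and 51.0 CPM against 8.73, 8.13 and 5.77 CPM after free R848 (edgeR adjusted p = 0.00327). Dtx2, an E3 ligase of the Deltex family, was at 199 and 243 CPM against 59.8, 42.8 and 51.3 CPM (log2 fold change 2.10 ± 0.22 SE, edgeR adjusted p = 0.00327). The guanine nucleotide exchange factor Rapgef5 and the iron-sensing ligase subunit Fbxl5 were also among the 10 largest rises.

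Of 27 genes of NF-κB feedback and its effectors, 3 were higher in members than after free R848 and none was lower. Sod2 was at 322 and 360 CPM against 142, 126 and 132 CPM, higher by 1.35 ± 0.17 (SE, edgeR adjusted p = 0.0105). Irak3, an inhibitor of Toll-like receptor signaling, was at 151 and 100 CPM against 55.9, 42.8 and 53.9 CPM, higher by 1.35 ± 0.21 (SE, edgeR adjusted p = 0.0306). Ptges, a prostaglandin E synthase, was at 26.7 and 32.1 CPM against 1.75, 4.52 and 3.85 CPM (edgeR adjusted p = 0.0225). MC38 cells of the same 2 tumors held 271 and 95.2 CPM of Ptges, more than the members. Sod2 and Irak3 each lost the call in 6 of 21 alternatives and Ptges in 9, and Sod2 lost it without any 1 of the free R848 and medium R848-BPD tumors. The protease gene Htra1 had a like pattern, with 37.1 and 43.4 CPM in members, 3.06, 4.52 and 3.85 CPM after free R848 and 367 and 327 CPM in MC38 cells. The part of MC38 RNA in these 2 genes was not tested.

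Genes lower in members included a protease and several receptors. Plau, the urokinase plasminogen activator, was at 24.5 and 22.6 CPM in members, 99.1, 142 and 130 CPM after free R848 and 390, 252 and 413 CPM after saline. It was lower by -2.38 ± 0.30 against free R848 and -3.87 ± 0.30 against saline on the log2 scale (SE, edgeR adjusted p = 0.0105 and 0.000364). Flt1, a receptor of vascular endothelial growth factor, was at 2.97 and 1.89 CPM against 44.1, 26.5 and 26.9 CPM after free R848 (edgeR adjusted p = 0.0125), from 4 and 1 UMIs in members. Tlr2, which senses bacterial lipoproteins, was at 205 and 162 CPM against 369, 393 and 417 CPM, and was the single called gene among 24 of the Toll-like receptor pathway (log2 fold change -1.09 ± 0.17 SE, edgeR adjusted p = 0.0324). Axl, a receptor for apoptotic cells, was at 148 and 145 CPM against 274, 273 and 302 CPM (-0.95 ± 0.14 SE, edgeR adjusted p = 0.0306). The transcription factor Mef2c, the acid-sensing receptor Gpr132, the transporter Abcg3, Ptms, Ivns1abp and Cd93 made up the rest of the 10 falls.

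Several genes often read in activated macrophages were not called between members and free R848. Tlr7, the receptor for R848 in the mouse, was at 94.9 and 117 CPM against 96.5, 97.0 and 96.2 CPM (log2 fold change 0.11 ± 0.17 SE, edgeR adjusted p = 0.896). Cxcl10 was at 396 and 768 CPM against 833, 561 and 633 CPM (edgeR adjusted p = 0.836). Nampt, which makes the NAD precursor NMN, was at 477 and 564 CPM against 519, 377 and 479 CPM (edgeR adjusted p = 0.81). Nos2, the inducible nitric oxide synthase, was at 156 and 296 CPM against 38.0, 15.1 and 49.4 CPM without passing (2.75 ± 0.59 SE, edgeR adjusted p = 0.104). Ly6c2, a marker of inflammatory monocytes, was at 236 and 247 CPM against 1074, 839 and 940 CPM, also without passing (-1.98 ± 0.39 SE, edgeR adjusted p = 0.0776). Nos2 and Ly6c2 each passed in 5 of 21 alternatives. For Spp1, Cxcl9, Mrc1 and Il1b the edgeR adjusted p ran from 0.619 to 0.865. No gene of the type I interferon list (38 tested, median 0.21), the interferon-gamma list (21 tested) or the list of inflammatory cytokines and chemokines (28 tested) was called.

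**Figure D3:**
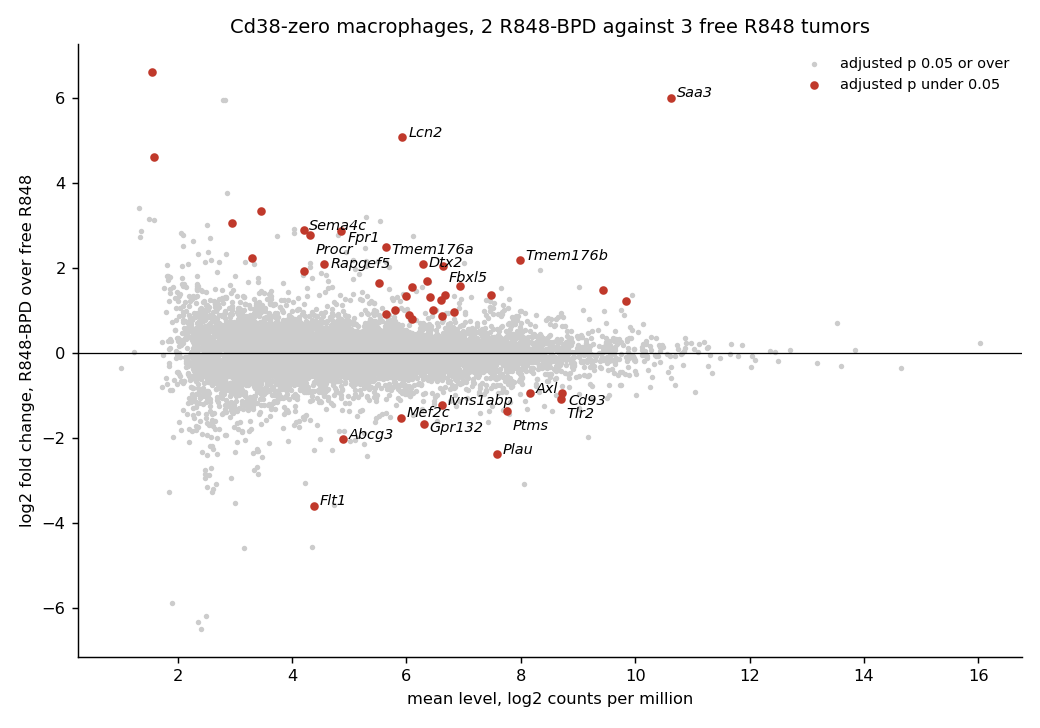
Log2 fold change of medium R848-BPD over free R848 in Cd38-zero macrophages (y axis) against mean level in log2 CPM (x axis), 1 point a gene. The 44 genes with adjusted p under 0.05 are red, and Saa3, at a fold change of 6.01, has the widest difference among the labelled genes.

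The calls against free R848 rested on few tumors. Without any 1 of free R848 replicates 1, 2 and 3 the number called was 11, 12 and 9 in place of 44, and dropping medium R848-BPD replicate 1 or 2 gave 12 and 15. Dropping saline replicate 2, which enters this comparison through the filter, the scaling and the spread, gave 166. With 1 treated tumor left, that tumor is assumed to vary like the other groups. Leaving out cells with any of the 20 markers of other cell types gave 25 calls. Saa3, Lcn2 and Dtx2 passed under all 21 alternatives, with log2 fold changes of 5.58 to 6.95, 4.48 to 6.01 and 1.93 to 2.47. Each of the other 17 genes of the 10 largest rises and falls lost its call without at least 1 tumor, and none changed sign.

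Against saline the members differed in many more genes, 242 higher (percent called 2.49) and 158 lower (percent called 1.63) of 9715 with edgeR's quasi-likelihood test. The members' own sums serve in this comparison and in that against free R848, so the comparisons are not independent. The type I interferon list had 13 of 38 genes higher and none lower, with a median log2 change of 0.81. Rsad2 (viperin) stood at 1056 and 1945 CPM in members, 643, 789 and 798 CPM after free R848 and 559, 425 and 646 CPM after saline (edgeR adjusted p = 0.0178 against saline). Isg15, a ubiquitin-like modifier, stood at 286 and 575 CPM, 272, 320 and 397 CPM, and 202, 127 and 159 CPM (edgeR adjusted p = 0.0354). Isg15 lost its call in 10 of 21 alternatives and Rsad2 in 3, and without medium R848-BPD replicate 2 neither passed (log2 fold changes of 0.83 and 0.97).

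Of 27 antioxidant genes, 8 were higher against saline and none was lower, with a list median of 0.65. Glutathione reductase Gsr was at 98.6 and 136 CPM in members and at 27.4, 22.7 and 27.99 CPM after saline (2.17 ± 0.23 SE, edgeR adjusted p = 0.00174). The glutamate-cysteine ligase genes Gclm and Gclc were higher by 1.98 ± 0.29 and 2.01 ± 0.38 (SE, edgeR adjusted p = 0.00789 and 0.0228), and both lost the call without medium R848-BPD replicate 2. Heme oxygenase Hmox1 was at 314 and 655 CPM against 128, 56.7 and 187 CPM (edgeR adjusted p = 0.0426), and lost its call in 11 of 21 alternatives. Against free R848 the edgeR adjusted p of Gsr, Gclm and Gclc was 0.0585, 0.0699 and 0.0733, and Sod2 alone of the list passed.

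Among single genes, the chemokine Ccl5 was at 1291 and 1257 CPM in members, 448, 528 and 327 CPM after free R848 and 44.9, 116 and 137 CPM after saline (3.69 ± 0.39 against saline, SE, edgeR adjusted p = 0.00155). Nos2 was higher against saline by 3.30 ± 0.61 (SE, edgeR adjusted p = 0.0208). Ms4a8a, a membrane protein of the MS4A family, was at 34.8 and 121 CPM against 0.761, 2.63 and 3.04 CPM (edgeR adjusted p = 0.00191). The neutrophil collagenase Mmp8 was at 94.9 and 104 CPM against 5.33, 2.25 and 24.3 CPM (edgeR adjusted p = 0.0254). The neutrophil list that holds Mmp8 had 2 of 7 genes higher. The checkpoint ligand Cd274 (PD-L1) was at 359 and 442 CPM against 95.5, 142 and 138 CPM (1.68 ± 0.29 SE, edgeR adjusted p = 0.015). Of these, Mmp8 lost its call in 7 of 21 alternatives, Cd274 in 4 and Nos2 in 3, and each lost it without medium R848-BPD replicate 2.

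Bst1 (CD157), the paralog of Cd38 that also hydrolyzes NAD, was detected in members although they lacked Cd38 UMIs. It was at 178 and 496 CPM in members, 102, 52.1 and 74.4 CPM after free R848 and 61.6, 61.2 and 70.6 CPM after saline. It was higher against saline by 2.37 ± 0.38 (SE, edgeR adjusted p = 0.0122), but without medium R848-BPD replicate 2 the value was 1.48 and the call was lost. Against free R848 the groups did not overlap and the test missed (2.11 ± 0.38 SE, edgeR adjusted p = 0.0559). Among 16 NAD genes tested, Bst1 and the ADP-ribosyltransferase Parp10 were the called genes against saline, both higher, and Parp10 lost its call in 10 of 21 alternatives.

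Falls against saline included S100a4, a calcium-binding protein of motile cells, at 25.2 and 37.7 CPM against 412, 110 and 718 CPM (-3.76 ± 0.72 SE, edgeR adjusted p = 0.0251). Trem2, a lipid receptor of tumor macrophages, was at 91.9 and 79.2 CPM against 254, 230 and 374 CPM (-1.71 ± 0.28 SE, edgeR adjusted p = 0.0121). The costimulatory ligand Cd86 was at 81.5 and 75.5 CPM against 229, 176 and 179 CPM (-1.29 ± 0.18 SE, edgeR adjusted p = 0.0057). The adhesion molecule Vcam1 was at 4.45 and 15.1 CPM against 42.2, 58.8 and 85.8 CPM (6 and 8 UMIs in members), with 528 and 514 CPM in MC38 cells. Of 31 cell-cycle genes, 4 were lower (Mcm7, Cenpf, Ccnb2 and Cenpa) and none was higher, with a median log2 change of -0.89. Mcm7 and Cenpf lost the call in 11 of 21 alternatives, Ccnb2 in 10 and Cenpa in 3. The 9 class II antigen presentation genes had a median of -1.71, and H2-DMa was the single called gene, lower. S100a4 lost its call in 7 of 21 alternatives, Vcam1 and H2-DMa in 4, Trem2 in 3 and Cd86 in 2. Without medium R848-BPD replicate 1 all but Cd86 of these 5 genes lost it, and without replicate 2 all but Vcam1 did. H2-Ab1 was at 906 and 1009 CPM in members and at 1970, 6537 and 930 CPM after saline, so the groups overlapped.

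Leaving out tumors moved these counts from 400 calls to between 68, when medium R848-BPD replicate 2 was dropped, and 646, when saline replicate 2 was dropped. Dropping medium R848-BPD replicate 1 gave 176, without free R848 replicates 1, 2 and 3 it was 212, 220 and 171, and without saline replicate 1 it was 141. Of the 20 largest rises and falls, 9 passed under every alternative, namely Saa3, Lcn2, Ccl5, Fpr1, Dtx2, Ms4a8a, Tmem176a, Clec5a and Plau.

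Within the medium R848-BPD tumors, 5 of 7 acute-phase, 6 of 16 scavenger or chemoattractant receptor and 12 of 19 resident macrophage genes were lower in members than in the Cd38-high cells of the same tumor. Ccr7, Spn, Cx3cr1 and 2 of 7 class II genes were higher in members. The fit took the tumor as a block and the classes of 0, 1 and at least 2 Cd38 UMIs, and 71 of 8272 genes were higher in members (percent called 0.858) and 136 lower (percent called 1.64) with edgeR's quasi-likelihood test. DESeq2 gave 17 higher and 55 lower. Of the 20 largest differences, 0 passed under every alternative, since the fit without the tumor block called no gene with edgeR (432 at an unadjusted p under 0.05). Genes named below for this comparison that DESeq2 did not call include Il4i1, Fcna, Fabp4, Edn1, Tmem176b, Ccl22, S100a9, Saa1, Vcam1, Cd163, Cbr2, Lyve1, Itgal, Usp18 and H2-Eb1. Cells of both classes came from the same 2 tumors. The p-values rest on how far the class differences vary between these 2 mice, and not on the spread of cells within a mouse. No other mice enter this comparison.

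Called acute-phase genes were lower in members than in Cd38-high cells. Saa3 was at 4785 and 7447 CPM in members and 13613 and 19809 CPM in Cd38-high cells, a log2 difference of -1.47 ± 0.11 (SE, edgeR adjusted p = 1.41e-06). Lcn2 was at 299 and 242 CPM against 537 and 784 CPM (-1.21 ± 0.17 SE, edgeR adjusted p = 0.000498). Hp was at 51.9 and 60.4 CPM against 186 and 208 CPM (-1.80 ± 0.21 SE, edgeR adjusted p = 0.000125). Saa1, another serum amyloid gene, held 1 and 1 UMIs in members and 50 and 42 in Cd38-high cells. Of 7 acute-phase genes tested, 5 were lower in members and none was higher.

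Scavenger and resident macrophage genes were also among those lower in members. Marco was at 7.41 and 35.9 CPM in members and 186 and 258 CPM in Cd38-high cells (-3.70 ± 0.28 SE, edgeR adjusted p = 1.41e-06). The mannose receptor Mrc1 was at 119 and 249 CPM against 344 and 775 CPM (-1.58 ± 0.14 SE, edgeR adjusted p = 1.04e-05). The folate receptor Folr2 was at 31.1 and 134 CPM against 158 and 269 CPM (edgeR adjusted p = 0.000598). The monocyte-attracting chemokine Ccl8 was at 14.1 and 406 CPM against 370 and 1490 CPM (-2.81 ± 0.34 SE, edgeR adjusted p = 0.000166).

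Of 19 resident macrophage genes, 12 were lower in members, among them Vcam1, Cd163, Cbr2, Lyve1, Gas6, Folr2, Mrc1, Igf1, Pf4 and Mertk, and 1 was higher (Cx3cr1). Cd163 and Lyve1 lost the call in cells thinned to 3000 UMIs, and Lyve1 also with cells holding other markers left out. Over the alternatives Cd163 ran from -5.81 to -0.48 on the log2 scale. Fcna, a ficolin, and the lipid carrier Fabp4 were lower as well (-3.25 ± 0.43 and -2.14 ± 0.43 SE, edgeR adjusted p = 0.000374 and 0.0117). In members they rested on 2 and 12 UMIs of Fcna and 7 and 4 of Fabp4. In single tumors the difference was -4.20 and -2.29 for Fcna and -2.70 and -1.20 for Fabp4. Of 18 lipid-associated macrophage genes, 9 were lower, including Trem2, Gpnmb, Ctsd and Ctsb, with a list median of -0.42. Of 27 antioxidant genes, 8 were lower, including Hmox1 at 314 and 655 CPM against 649 and 1399 CPM (-1.08 ± 0.12 SE, edgeR adjusted p = 0.000103). Nos2 and Bst1 were lower by -0.97 ± 0.13 and -1.08 ± 0.13 (SE, edgeR adjusted p = 0.00047 and 0.000166). The median over all genes was 0.0052.

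The neutrophil genes S100a8 and S100a9 were lower in members, at 7.41 and 32.1 CPM and 1.48 and 47.2 CPM, against 32.9 and 247 CPM and 9.72 and 294 CPM (edgeR adjusted p = 2.26e-05 and 0.00112). Summed over 12 neutrophil genes, members held 147 and 221 CPM and Cd38-high cells 323 and 969 CPM. With cells thinned to 3000 UMIs and then sorted anew by Cd38, the differences of S100a8 and S100a9 were -0.44 and 0.0068 on the log2 scale. The call of S100a8 was lost. The Cd38-zero class then held 274 and 137 cells and the Cd38-high class 108 and 135, so these values do not describe the members alone. The part of neutrophil RNA in the gap between the classes was not tested.

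**Figure D4:**
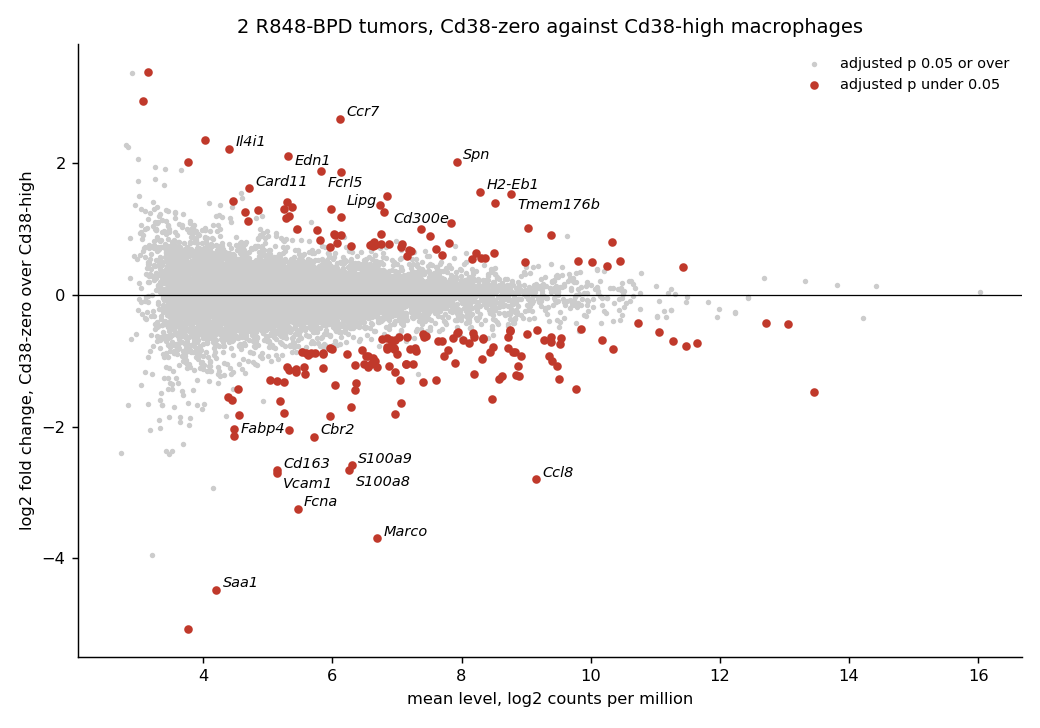
Log2 fold change of Cd38-zero over Cd38-high macrophages within the 2 medium R848-BPD tumors (y axis) against mean level in log2 CPM (x axis), 1 point a gene. Red points have adjusted p under 0.05, 136 of them below 0 and 71 above, with Saa1 and Marco lowest and Ccr7 highest among the labelled genes.

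Genes higher in members than in Cd38-high cells had other roles. Ccr7, which guides dendritic cells to lymph nodes, was at 122 and 121 CPM against 22.2 and 13.8 CPM (2.68 ± 0.28 SE, edgeR adjusted p = 3.28e-05). Il4i1, an amino acid oxidase also made by mature dendritic cells, was at 41.5 and 47.2 CPM against 10.2 and 7.75 CPM (edgeR adjusted p = 0.00421). Of 12 dendritic cell markers 4 were tested, and 2 were called, both higher in members (Ccr7 and Ccl22). The 12 markers summed to 183 and 258 CPM in members and 69.9 and 47.3 CPM in Cd38-high cells, while 6 of the 12 were at 0 in the members of each tumor. The part of dendritic cells that also passed the C1q gate was not tested.

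Of 17 monocyte genes tested between the classes, Spn (CD43) and Itgal were higher in members and Ly6a lower, with a list median of -0.03. Spn was at 463 and 334 CPM against 147 and 53.4 CPM (2.03 ± 0.20 SE, edgeR adjusted p = 2.86e-05). Cx3cr1, the fractalkine receptor and the single higher gene of the resident list, was at 707 and 296 CPM against 365 and 63.7 CPM (edgeR adjusted p = 0.000874). Cd300e was at 163 and 196 CPM against 54.6 and 72.3 CPM (edgeR adjusted p = 0.00062). Fcrl5, an immunoglobulin receptor, and the endothelial lipase gene Lipg were higher by 1.88 ± 0.26 and 1.86 ± 0.19 (SE, edgeR adjusted p = 0.000491 and 3.2e-05).

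Of 7 class II genes, H2-Eb1 and H2-Aa were higher in members. H2-Aa lost its call with cells holding markers of other types left out. H2-Eb1 was at 460 and 474 CPM against 88.4 and 292 CPM (1.56 ± 0.25 SE, edgeR adjusted p = 0.00172), with 1311, 485 and 971 CPM in the Cd38-zero cells after free R848. H2-Ab1 and Cd74 were at edgeR adjusted p = 0.0622 and 0.102. The vasoconstrictor gene Edn1 was at 66.0 and 94.3 CPM against 12.5 and 27.5 CPM (2.11 ± 0.30 SE, edgeR adjusted p = 0.000587). The cytokine Tnf was at 168 and 213 CPM against 94.0 and 131 CPM (0.77 ± 0.15 SE, edgeR adjusted p = 0.00916). Tmem176b, higher in members than after free R848, was also higher than in Cd38-high cells, at 833 and 506 CPM against 373 and 127 CPM (1.53 ± 0.24 SE, edgeR adjusted p = 0.00153).

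Other genes, called against saline or not, were not called between the classes. Fpr1 was at 116 and 88.7 CPM in members and 155 and 146 CPM in Cd38-high cells (edgeR adjusted p = 0.102). Dtx2 was at 199 and 243 CPM against 197 and 275 CPM (-0.08 ± 0.14 SE, edgeR adjusted p = 0.917). Plau was at 24.5 and 22.6 CPM against 23.6 and 35.3 CPM (edgeR adjusted p = 0.937). Ccl5 was at 1291 and 1257 CPM against 938 and 1002 CPM (0.39 ± 0.11 SE, edgeR adjusted p = 0.0717). Cd86, S100a4, Nampt, Tlr7 and Cxcl9 had edgeR adjusted p from 0.92 to 0.999, and of 38 type I interferon genes only Usp18 was called, higher in members, and it lost its call in 4 of the 11 alternatives that gave a test, among them that without doublets. A p that misses the threshold does not show equal levels.

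**Figure D5:**
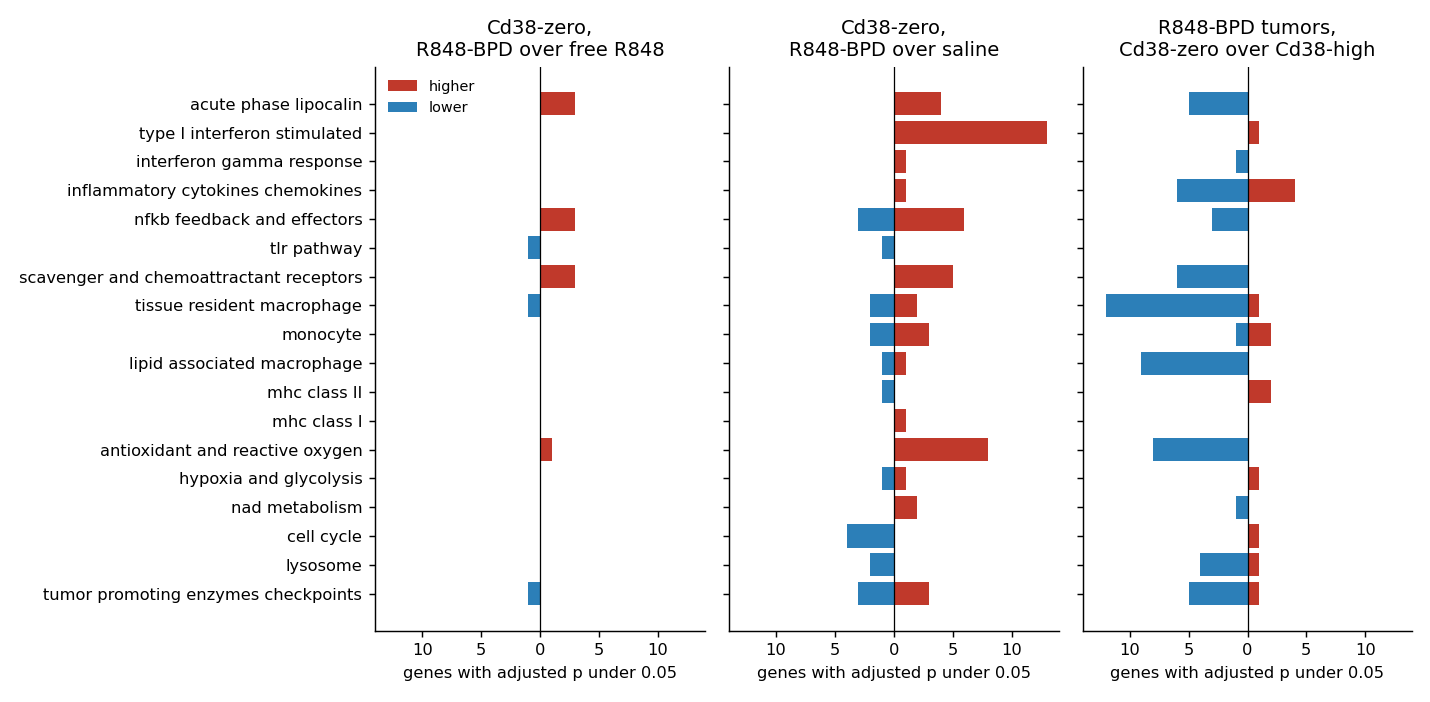
Number of genes with adjusted p under 0.05 (x axis; red bars to the right are higher, blue bars to the left lower) in 18 gene lists (y axis) for 3 comparisons. Type I interferon genes reach 13 to the right against saline and none against free R848, and resident macrophage genes have 12 to the left in members against Cd38-high cells.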

How the data were processed

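For each tumor the authors deposited a matrix of UMI counts. Per the labels, bcl2fastq and mm10 were used, and the aligner and annotation are not given in the sources used here. Total depth, 5867590 to 12422614 UMIs per tumor, and the 102 to 750 Cd38-zero cells per tumor set the precision. The members and gene lists were chosen with earlier results of these data known. Counts were summed per tumor and Cd38 class and tested with edgeR 4.0.16 (TMM, filterByExpr, quasi-likelihood F test, Benjamini-Hochberg, 0.05) in R 4.3.3, over all 8 tumors for treatments and with the tumor as a block for classes; gate genes stayed out of the tests. DESeq2 1.42.0 was an alternative. SE is the log2 fold change over the root of F. Scrublet (scanpy 1.11.5) marked 100 of 9886 cells as doublets, which were kept. Named genes were the 10 largest rises and 10 largest falls among called genes with mean log2 CPM of at least 4, without overlap between the groups (classes: same direction in both tumors), up to 4 called genes of each list, and 17 genes always given, except that some of these results are not reported here. Htra1, Cx3cr1, Folr2, Gas6, Igf1, Mertk, Pf4, Tnf, Cd74, H2-Ab1, Ccl4, Cxcl1, Ccl9, Osm and Cxcl2 fall outside this rule and were named after their values were seen. Some genes that the rule gave for 1 comparison were also named in another, such as Trem2, Dtx2 and Plau between the classes. Leaving out shared barcodes, and cells with markers of other types, were alternatives chosen after seeing the data. No source says that same-numbered tumors belong together.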

Additional observations from a re-analysis of the deposited data

How the results depend on the processing

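Against free R848, 44 genes were called in Cd38-zero macrophages. DESeq2 called 144, all gated macrophages gave 153, cells of at least 6000 UMIs 23, no filter on low counts 518, leaving out cells with markers of other types 25 and a fit of the 2 groups alone 202, and leaving out 1 tumor gave 9 to 166. Against saline, with 400 called, all gated macrophages gave 1000, cells of at least 6000 UMIs 121, the same number of cells per tumor 218, no filter 1165, leaving out cells with other markers 182, the 2 groups alone 72, and leaving out 1 tumor 68 to 646. Between the Cd38 classes, with 207 called, DESeq2 gave 72, cells matched on UMIs 345, no filter 359 and the 2 classes alone 461. Cxcl5 between the classes was -0.51 without replicate 2 and 2.93 without replicate 1, and S100a9 was 0.0068 in cells thinned to 3000 UMIs. Fits on thinned cells sorted them anew by Cd38, so their Cd38-zero class was not the members alone. The share of cells without Cd38 after medium R848-BPDs was 46.2% when thinned, 39.3% at 3000 to under 6000 UMIs and 19.9% at 12000 UMIs and over, where free R848 had 84.3% and saline 87.6%. Except where the alternative itself used fewer cells or tumors or tested more genes, the cause was not tested.

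Same-numbered tumors share only a number. A replicate block gave 9 calls against free R848 and 177 against saline. Between the Cd38 classes, where both classes come from 1 tumor, the fit without the replicate block called 0 genes with edgeR, with 432 at an unadjusted p under 0.05, and DESeq2 with the block called 72.

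With 2 treated tumors and 102 to 188 members each, calls on genes of few UMIs rest on little data, and a missing call says nothing about equal levels.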

Other observations

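In Cd38-zero macrophages of medium R848-BPD tumors, Ctsc and Gusb of 28 lysosome genes were lower against saline and none was higher, where 1.63% of all genes were lower and 2.49% higher. Of 25 hypoxia and glycolysis genes, the glycolytic regulator Pfkfb3 was higher and Pfkp lower. Gusb, Ctsc and Pfkp lost their calls in 11, 9 and 10 of 21 alternatives. Against free R848 no gene of these 2 lists was called with edgeR. Of 18 class I antigen presentation genes H2-T22 alone was called against saline, higher, and none was called against free R848 or between the Cd38 classes.

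Between the Cd38 classes, 10 of 30 cytokine and chemokine genes were called, where 0.858% of all genes were higher and 1.64% lower. Ccl22, Cxcl5, Tnf and Ccl4 were higher in Cd38-zero cells, although Cxcl5 turned to -0.51 on the log2 scale without replicate 2 and DESeq2 called neither it nor Ccl22, and Ccl8, Ccl6, Cxcl1, Ccl9, Osm and Cxcl2 were lower.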
